A study of Mus musculus with 4 samples.

Results

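Levels of 9 genes of microglia, the resident macrophages of the brain, were measured in the dentate gyrus of handled control mice. The genes are C1qa, C1qb, C1qc, Ctss, Csf1r, Laptm5, Cd53, Tyrobp and Cd68. The members are all rows of the deposited array table that the array annotation assigns to exactly 1 of these symbols. All 9 genes were on the array, with 13 probe sets, out of 8251 genes named by 10833 probe sets in all. A probe set is a group of short probes for 1 transcript. Of the 13, 12 passed the filter on dim signal and 1 of Cd68 did not.

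The study measured total RNA from the dentate gyrus of the hippocampus with single-channel oligonucleotide arrays. All 4 samples came from young male C57BL/6J mice that an experimenter handled and that had no other treatment. They differ in the hour of RNA extraction, counted from the last shock given to other mice of the study: 1, 2, 4 or 6 h, with 1 array per hour. The shocked mice were not analysed here, and how many mice contributed to an RNA sample is not stated, so each mean ± SD here covers these 4 arrays (n = 4) and measures only the spread between them.

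C1q is the recognition part of the classical complement pathway. It is built from A, B and C chains in equal numbers, each with its own gene, and in the brain it is made mainly by microglia, where it tags synapses and debris for removal. Csf1r is the receptor for the growth factors that keep microglia alive, and Tyrobp (DAP12) is the signalling adaptor of the TREM2 receptor. Ctss, Cd68 and Laptm5 encode proteins of the endosome and lysosome: the protease cathepsin S, the macrophage glycoprotein macrosialin and a membrane protein of blood-lineage cells. Cd53 is a tetraspanin of leukocytes.

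The 3 C1q genes lie next to one another on mouse chromosome 4, in the order C1qb, C1qc and C1qa among the protein-coding genes of the GRCm38.p6 assembly. Promoter sequences were present for 6 of the 9 genes in the RefSeq table used (GRCm38.p6), among them C1qb and C1qc. The 250 bases before the annotated starts of C1qb (chr4:136886201-136886450, minus strand) and C1qc (chr4:136892915-136893164, minus strand) are shown because the main probe sets of these neighbouring genes had the same order over the arrays. Capitals mark an exact match to the letters of a form of PU.1 site, given below. Near matches were not searched for, so unmarked bases do not show that a site is absent. PU.1, the product of Spi1, is the lineage factor of macrophages and microglia.
C1qb: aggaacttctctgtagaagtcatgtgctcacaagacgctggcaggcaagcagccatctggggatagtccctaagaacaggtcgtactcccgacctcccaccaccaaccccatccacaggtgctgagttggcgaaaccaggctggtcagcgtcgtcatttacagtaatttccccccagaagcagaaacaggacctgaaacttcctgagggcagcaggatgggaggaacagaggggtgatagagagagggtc
C1qc: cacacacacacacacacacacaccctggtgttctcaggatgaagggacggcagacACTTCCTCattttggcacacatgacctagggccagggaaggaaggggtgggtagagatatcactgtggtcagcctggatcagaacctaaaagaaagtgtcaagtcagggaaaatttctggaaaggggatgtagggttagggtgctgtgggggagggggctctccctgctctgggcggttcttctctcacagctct

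The motif searched was GAGGAAGT on either strand, chosen after the promoters had been seen, in windows of 300 bases from 250 before to 50 after each start. It was found in 3 of the 6 member windows and in 3.2% of all 32851 windows in the table. Because the choice was made with the member promoters in view, these shares cannot be compared as a test. Each match was on the opposite strand, so it reads ACTTCCTC in the gene's direction. It began at base -195 for C1qc, and spanned bases -2 to 6 of Ctss and bases 7 to 14 of Cd53, counted from the start with no base 0. The windows around the matches in Ctss (chr3:95526773-95526802, plus strand) and Cd53 (chr3:106790125-106790154, minus strand) are shown for comparison with C1qc (chr4:136893091-136893120, minus strand). A match describes the letters and says nothing of binding.
C1qc: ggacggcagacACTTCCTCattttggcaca
Ctss: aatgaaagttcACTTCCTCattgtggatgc
Cd53: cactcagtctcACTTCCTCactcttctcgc

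The main probe sets of the C1q chains were all lowest on the 1 h array and all highest on the 2 h array. C1qa read an intensity of 907, 1510.1, 1392.5 and 1223 at 1, 2, 4 and 6 h, a mean of 1258 ± 262 (SD, n = 4). C1qb read 656, 993, 891 and 959.5 on its brighter, main probe set, a mean of 875 ± 152. C1qc read 1394, 1943, 1731 and 1839, a mean of 1727 ± 238. The 1 h value of each gene lay below its other 3 values. In tissue RNA, fewer cells of a type and less RNA per cell cannot be told apart.

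Set against the mean of the 2, 4 and 6 h arrays on the log2 scale, the 1 h value was lower by 1.51-fold for C1qa, 1.44-fold for C1qb and 1.32-fold for C1qc. These differences are -0.59, -0.53 and -0.40 in log2 intensity, and the SD of the other 3 arrays was 0.15, 0.08 and 0.08. With 1 array at 1 h the difference has no replicate check and no p-value. Differences of this size were common: 11.6%, 13.2% and 17.9% of all 7453 probe sets kept lay at or below the values of C1qa, C1qb and C1qc. The 1 h array also stood apart in a measure of RNA quality. The ratio of the 3' to the 5' control probe set of Gapdh was 4.88 at 1 h and 1.13, 1.33 and 1.24 at 2, 4 and 6 h, and that of beta-actin was 2.51 at 1 h and 1.83, 2.20 and 1.97 later. The part of RNA quality in the 1 h values of the C1q genes was not tested.

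The 3 chains differed from one another less than from the median of the other members at 1 h. The log2 ratio of C1qb to C1qc within an array stayed within 0.10 of its mean over the 4 arrays, with an SD of 0.07. The ratio of C1qa to C1qb stayed within 0.17 (SD 0.13), and that of C1qa to C1qc within 0.16 (SD 0.15). These are changes in a ratio, which a common scaling of an array does not alter. A second probe set of C1qb went the other way, at 216, 126, 181 and 100.4, with its highest value at 1 h and its lowest at 6 h. It was the dimmer of the pair, and its identifier (ending in _i_at) is of a kind that rests on fewer probes. The pair therefore disagree on the order of the hours for C1qb.

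**Figure D1:**
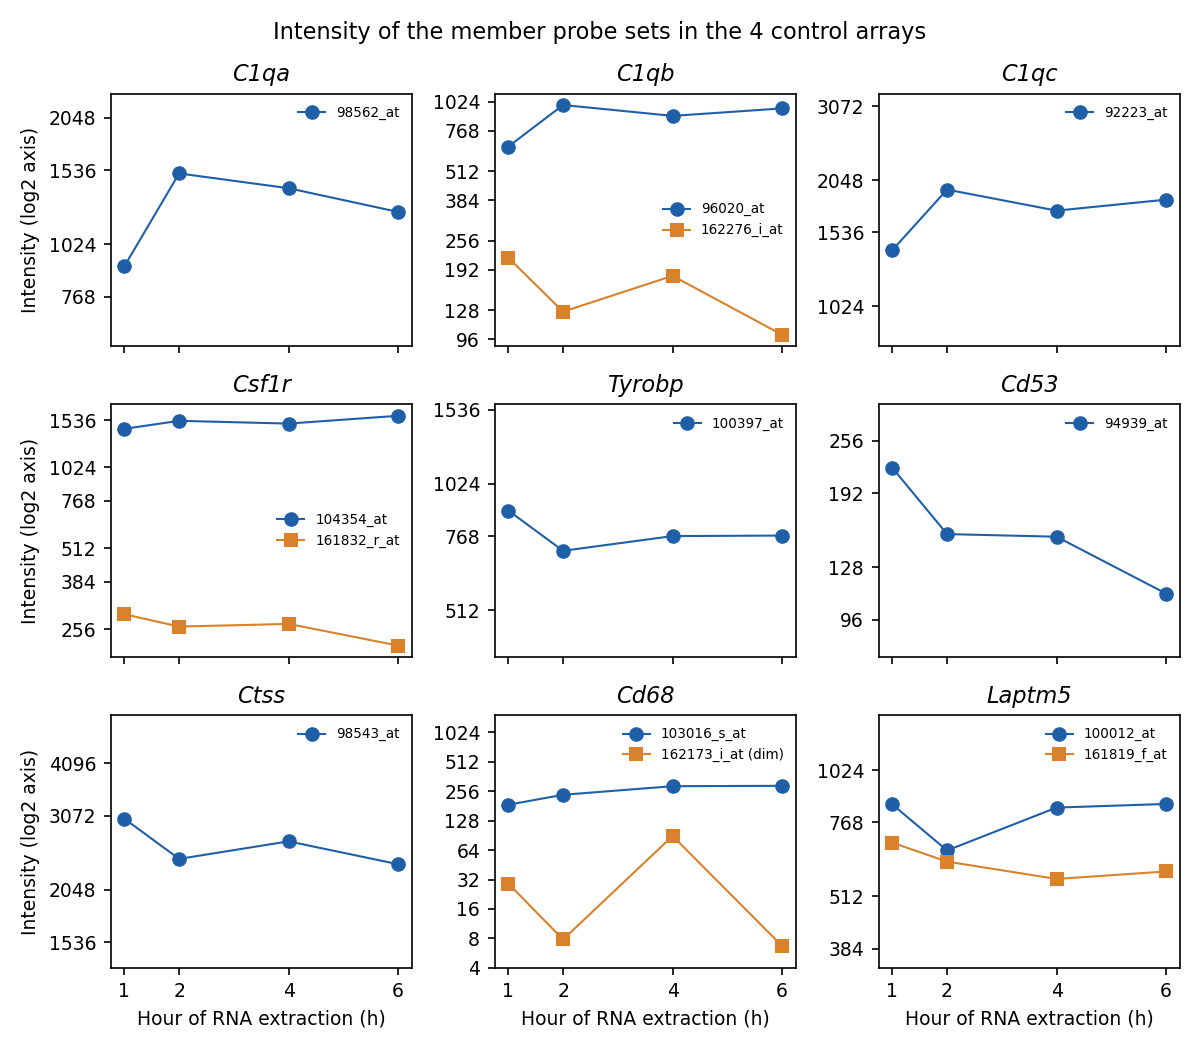
Intensity (log2 axis) of every member probe set against the hour of RNA extraction, 1 panel per gene and 1 point per array; where a gene has a pair, circles are the brighter and squares the dimmer probe set. C1qa, C1qc and the brighter set of C1qb are lowest at 1 h, while Ctss, Tyrobp and Cd53 are highest there.

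Csf1r was the steadiest of the 9 genes on its main probe set. It read 1424, 1525, 1489.6 and 1592.5 at 1, 2, 4 and 6 h, a mean of 1508 ± 70.2 (SD, n = 4). Its highest value exceeded its lowest by 1.12-fold, and its log2 SD of 0.07 was at or above that of only 4.12% of all kept probe sets. The dimmer probe set of Csf1r read 291, 262, 268 and 223, a mean of 261 ± 28.5. That set was highest at 1 h and lowest at 6 h, where the main set was lowest at 1 h and highest at 6 h.

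Tyrobp, the adaptor, was also even over the arrays. It read 884, 709, 768 and 771, a mean of 783 ± 73.2 (SD, n = 4). The 1 h value was the highest, 1.18-fold over the mean of the other 3, and the 2 h value the lowest. Cd53, the leukocyte tetraspanin, read 221, 153, 151 and 111, a mean of 159 ± 45.6. It was highest at 1 h and lowest at 6 h, 1.99-fold apart, the widest range of the kept main probe sets.

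The lysosomal members did not share one order. Ctss read 3025, 2426, 2671 and 2356, a mean of 2619.5 ± 302 (SD, n = 4), with its highest value at 1 h, 1.22-fold over the mean of the others. Cd68 read 186, 235, 288 and 290.5 on the probe set that was kept, a mean of 249.9 ± 49.6. It was lowest at 1 h, by 1.45-fold against the mean of the others, and its 4 and 6 h values were alike. The second Cd68 probe set read 29.1, 7.8, 89.1 and 6.7 around a floor of 16.4, so no order is read from it.

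Laptm5 had a pair of probe sets that disagreed. The brighter read 848, 659, 833 and 850.2, a mean of 798 ± 92.9 (SD, n = 4), with its 2 h value apart from the rest. The dimmer, of a kind (_f_at) that can share sequence with related transcripts, read 687.5, 619.7, 563 and 587, a mean of 614 ± 53.9. The brighter set was lowest at 2 h and highest at 6 h, and the dimmer set was lowest at 4 h and highest at 1 h.

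The members thus fell on both sides of the other arrays at 1 h. Of the 12 kept probe sets, 5 were lower at 1 h than the mean of the other 3 arrays and 7 were higher, and all 12 kept their side after scaling to a common median, after quantile normalisation, and with a pseudocount in place of the floor. The 5 were those of C1qa, C1qc and Cd68, the main set of C1qb and the main set of Csf1r. Among all kept probe sets 45.4% were lower. The 1 h array was the lowest of the 4 for 5 of 12 member probe sets, against 30.4% of all, and the highest for 6 of 12, against 35.4% of all. None of the 12 was 2-fold lower or higher at 1 h than the mean of the other arrays, where 5.29% of all were at least 2-fold lower and 1.8% at least 2-fold higher.

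**Figure D2:**
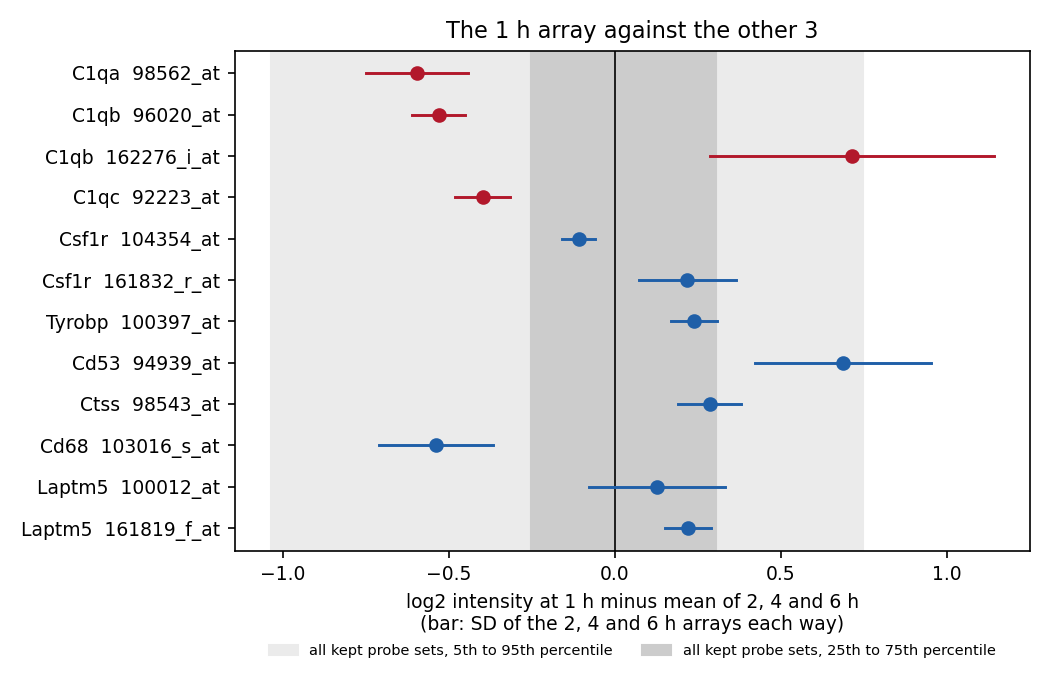
Log2 intensity at 1 h minus the mean of the 2, 4 and 6 h arrays for the 12 kept member probe sets (C1q in red, others in blue); bars show the SD of those 3 arrays each way, and grey bands the middle 50% and 90% of all kept probe sets. The main C1q sets and Cd68 lie between -0.59 and -0.40, and Ctss, Tyrobp and Cd53 lie above 0.

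The distance between the C1q chains and the other members can be given without regard to the scaling of an array. The median log2 deviation from the gene's own mean of 4 arrays was -0.40, 0.20, 0.04 and 0.10 at 1, 2, 4 and 6 h for the 3 main C1q probe sets. For the 8 kept probe sets of the other genes it was 0.17, -0.04, 0.01 and -0.04. The C1q median minus that of the others was -0.56, 0.24, 0.04 and 0.14 in the same order. The C1q side leaves out the dimmer C1qb set, whose deviation was 0.54 at 1 h. The other side includes the dimmer sets of Csf1r and Laptm5. The medians were close to each other at 4 h and farthest apart at 1 h. Cd68 was near the C1q median at 1 h, at -0.40, but near that of the other members at 2 h, at -0.06. At 4 and 6 h it was at 0.23 and 0.24, above the medians of either side. With 1 array per hour the difference between the C1q chains and the other members was not tested.

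**Figure D3:**
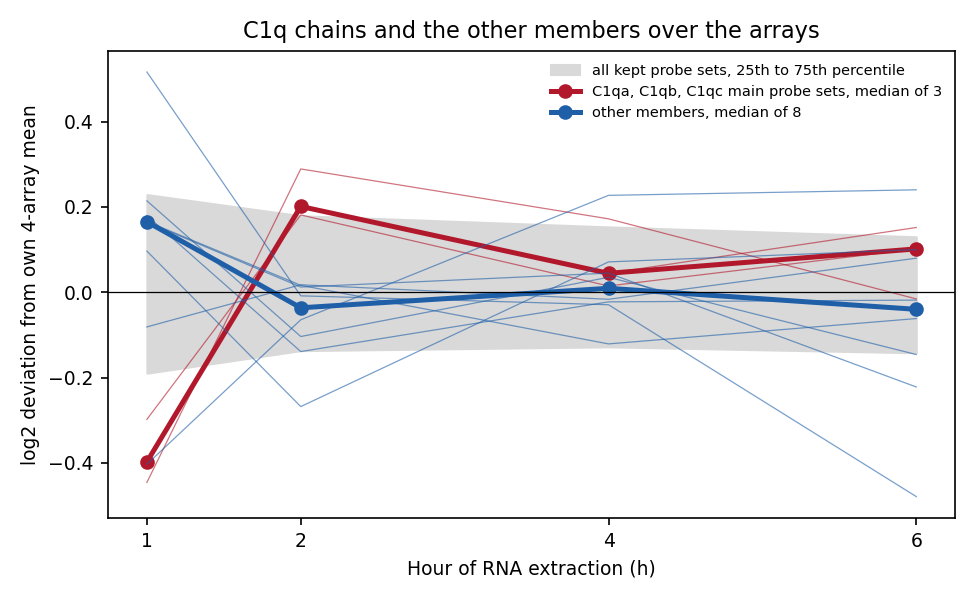
Log2 deviation of each kept probe set, the dimmer C1qb set left out, from its own mean of 4 arrays against the hour. Thick lines are the medians of the 3 main C1q sets (red) and the 8 sets of other members (blue). Thin lines are single sets, and the grey band is the middle 50% of all kept probe sets. The C1q median is -0.40 at 1 h, and that of the other members 0.17.

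The spread of the members over the 4 arrays was near that of the table as a whole. The median log2 SD was 0.19 for the 12 kept members and 0.24 for all 7453 kept probe sets, and 7 of the 12 lay at or below the latter. The dimmer set of C1qb and the kept sets of Cd53, C1qa and Cd68 varied at least as much as 85.1%, 77.7%, 65.9% and 62.6% of all kept probe sets. Without the 1 h array it was 0.12 for the members and 0.18 for all. The highest and lowest array were at least 2-fold apart for 1 of 12 member probe sets, the dimmer set of C1qb (2.16-fold), against 18.5% of all. That count was 0 without the 1 h array, without the 6 h array, and after scaling to a common median.

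None of the members had a trend over the hours that passed the test. The slope of log2 intensity on the hour was fitted in limma to all 7453 kept probe sets, with Benjamini-Hochberg adjustment over all of them. Of the members 0 of 12 passed at 0.05, with adjusted p-values in limma from 0.874 to 0.958, and 1 probe set passed in the whole table (0.0134%). At an unadjusted p under 0.05 there were also 0 of 12 members, against 4.4% of all. With 4 arrays the intervals of the slopes are wide, and a p that misses the threshold does not show that a level was constant.

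The slopes of the main C1q probe sets were 0.05 ± 0.07 (SE) log2 units per hour for C1qa (95% interval -0.11 to 0.21), 0.07 ± 0.06 for C1qb (-0.06 to 0.21) and 0.05 ± 0.05 for C1qc (-0.07 to 0.17). Without the 1 h array all 3 turned negative, to -0.08, -0.01 and -0.02, so their sign rests on that array. The steepest member slopes were those of Cd53, at -0.17 ± 0.10 (-0.40 to 0.06), the dimmer set of C1qb, at -0.15 ± 0.11 (-0.43 to 0.12), and Cd68, at 0.12 ± 0.07 (-0.05 to 0.29). Cd53, the dimmer set of C1qb and Cd68 kept their sign whichever array was left out. Without the 1 h array they had slopes of -0.12, -0.08 and 0.08. The slopes of Ctss, the Csf1r sets and the dimmer set of Laptm5 also kept their sign. Csf1r had the narrowest interval, 0.02 ± 0.04 (-0.07 to 0.12) on its main set. Tyrobp had a slope of -0.02 ± 0.05 (-0.14 to 0.10), which was 0.03 without the 1 h array, and Ctss one of -0.05 ± 0.04 (-0.15 to 0.05). Of the 12 slopes 6 were positive. The pairs of C1qb, Csf1r and Laptm5 each had 1 positive and 1 negative slope.

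**Figure D4:**
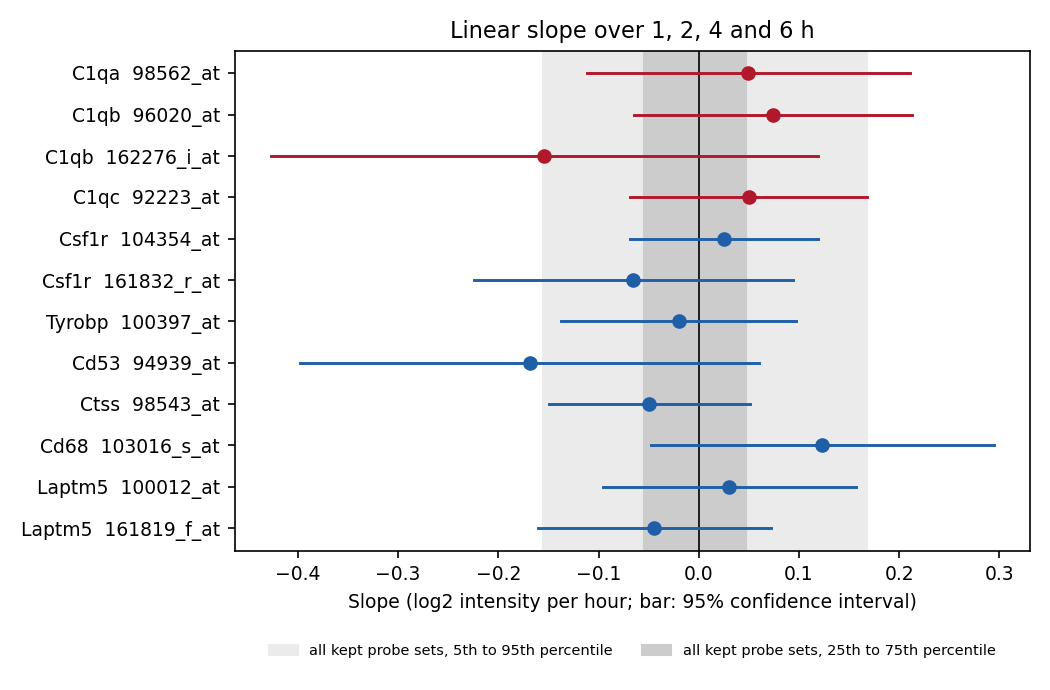
Slope of log2 intensity per hour for the 12 kept member probe sets (C1q in red, others in blue), with 95% confidence intervals as bars and the middle 50% and 90% of all kept slopes as grey bands. The interval of each of the 12 includes 0.

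Other genes of microglia and macrophages gave no call. Of 48 listed genes 34 had a probe set, and 18 of those had a kept one, with 19 probe sets in all. None of the 19 passed the trend test in either direction in limma (lowest adjusted p = 0.874). There were 9 positive and 10 negative slopes, with a median of -0.01, the same to 2 decimals as that of all kept probe sets. The brightest were Coro1a, an actin regulator of leukocytes (1459, 1229, 1394 and 1435), and Selplg, the P-selectin ligand (1027, 1237, 1273 and 1126). The largest slopes were those of Cd52 (164, 264.5, 63.1 and 94.5) and Ly86 (505.5, 315, 229.5 and 283). Ly86 was highest at 1 h, and Selplg lowest there. The summed intensity of all 45 probe sets of the list ran from 7733 at 6 h to 8584 at 4 h. Cx3cr1, the fractalkine receptor that marks microglia, read 291, 364, 436 and 338, and Spi1 74.6, 138, 68.8 and 167. The markers Aif1 (32.5, 56.4, 193 and 37.9) and Itgam (21.4, 136, 114 and 36.1) were under the filter. These 4 genes were named after their values had been seen, and each was lower at 1 h than the mean of the other arrays. Of the 19 kept sets of the list, however, 3 were lowest at 1 h and 6 were highest there. The median log2 difference of the 19 between 1 h and the mean of the other arrays was 0.08.

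Downstream and regulatory complement genes also gave no call. Of 41 listed genes 29 had a probe set, and 10 had a kept one, with 12 probe sets. None of the 12 passed in limma (lowest adjusted p = 0.874), and 3 slopes were positive and 9 negative, with a median of -0.03. Clu (clusterin, an inhibitor of the terminal complex that astrocytes make) was the brightest, at 9899, 9152, 11546 and 10419 on one probe set and 4472.5, 3424, 3803 and 3516 on the other. C1ra, a protease of the C1 complex that C1q activates, read 290.4, 169, 175 and 71.1. Cr1l, a regulator of complement on cell surfaces, read 406, 216, 376 and 40.3 on one set and 136, 104, 96.3 and 129 on another, which was not low at 6 h. This C1ra set was highest at 1 h, where the main C1q sets were lowest. It is of the _f_at kind, which can share sequence with related transcripts. Another C1ra set, under the filter, read 21.6, 98.3, 17.3 and 29.4.

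None of the other lysosomal genes passed the test in limma (0 of 33 kept probe sets of 25 genes; lowest adjusted p = 0.874). Their slopes were positive in 19 and negative in 14, with a median of 0.03. Cst3, the secreted inhibitor of cathepsins, read 30253.5, 27026, 29280.4 and 24430.5, and on a second set 2935, 1001, 1069 and 926. Lamp1, a lysosomal membrane protein, read 6703, 7546, 7483 and 7321. A dim set of Psap, the precursor of the saposins, read 6.6, 245, 172 and 163, and its brightest set 4408, 6681, 6715 and 5914. Those Psap sets were lowest at 1 h, but another kept set of the gene was highest there, at 576, 453, 492 and 365. For both Cst3 sets the 1 h value was the highest, as for Ctss, though the dimmer is of the _i_at kind that rests on fewer probes. Of the 33 kept sets, 10 were highest at 1 h and 14 were lowest there.

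Genes of CSF1 receptor and DAP12 signalling gave 0 calls in limma among 14 kept probe sets of 11 genes (lowest adjusted p = 0.874), with 9 positive and 5 negative slopes and a median of 0.01. Sirpa, an inhibitory receptor of myeloid cells and neurons, read 855, 1533, 1601 and 1836 on its brightest set and 22.6, 412, 273 and 281 on another. Fyn, a kinase, read 2525, 1646, 1425 and 1877, and Cbl, which marks Csf1r for degradation, 46.4, 209.5, 111 and 187. Csf1, the ligand of Csf1r, named after its values were seen, read 745, 665, 550 and 580 in the deposited table. Sirpa and Cbl were lowest at 1 h, and Fyn and Csf1 highest.

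Tetraspanins, the family of Cd53, gave 0 calls in limma among 14 kept probe sets of 11 genes (lowest adjusted p = 0.874), with 8 positive and 6 negative slopes and a median of 0.02. Cd81 read 1798, 2522, 3071 and 3003, and Cd63, a lysosomal tetraspanin, 1343, 1495.5, 1436.5 and 1654. Cd82 read 363, 271, 263.5 and 191.5, and Tspan4 86.5, 138, 160.5 and 242. That Cd82 set had the same order over the hours as Cd53, from highest at 1 h to lowest at 6 h, but a second, brighter set of Cd82 read 286, 389, 305 and 367, lowest at 1 h.

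Inflammatory and activated microglia genes were mostly dim: 25 of 28 had a probe set, and 7 had a kept one, with 8 probe sets, of which 0 passed in limma (lowest adjusted p = 0.874). Their slopes were positive in 3 and negative in 5, with a median of -0.10. Igf1, a growth factor that neurons also make, led them at 1047, 1376, 1346 and 1212.5. Ccl3, a chemokine, read 138, 109.7, 173 and 62.6, and Lpl, lipoprotein lipase, 239, 253, 294 and 308 on its brighter set. The dimmer Lpl set went the other way, at 179, 166 and 102.5 at 1, 2 and 4 h and with its lowest value at 6 h.

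Perivascular macrophage and blood leukocyte markers were measured because they could share genes such as Cd53 with microglia. Of 25 listed genes 22 had a probe set and 6 a kept one, and 0 of 6 probe sets passed in limma (lowest adjusted p = 0.874). The summed intensity of all 26 probe sets of the list, those under the filter included, was 2762, 2046, 2351 and 1779.7 over the hours. It was highest at 1 h and lowest at 6 h, as Cd53 was, and 1 of the 6 slopes of kept sets was positive and 5 were negative. The kept sets named by the rule were Elane (411, 327, 314 and 275), Ms4a1 (314, 199, 263 and 220.3), Cd79a (222, 274, 149 and 83.5) and Camp (239, 170.0, 211 and 102.5). Dim signal also changed over all non-control probe sets. The values under the floor numbered 1056, 1179, 1248 and 1462 at 1, 2, 4 and 6 h. The median intensity was 183.4, 182, 183.6 and 169.4. The part of blood cells, or of this change in dim signal, in the Cd53 values was not tested.

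Markers of the other cell types of the tissue gave their own levels beside these. Sums run over all probe sets of a list, including those under the filter. Neuron and granule cell markers (12 probe sets, 9 of them kept) summed to between 35305 and 37814 over the arrays, and astrocyte markers (13, all kept) to between 47081 and 52020.5. Oligodendrocyte markers (13, 10 kept) summed to between 13575 at 1 h and 20822 at 2 h, endothelial and mural markers (11, 7 kept) to between 1569 and 2084, and erythrocyte markers (5, 4 kept) to between 3635 and 4980.1. Choroid plexus markers (6, 4 kept) went from 2168 at 1 h to 6778 at 6 h, and 1 of them, Ttr, was the single probe set that passed the trend test in limma. In the other 5 lists 0 kept probe sets passed it (lowest adjusted p = 0.874). The oligodendrocyte sum was lowest at 1 h and highest at 2 h, as the main C1q sets were. At 4 and 6 h the sum was 13770 and 14176, near its 1 h value. The main C1q sets at those hours were nearer to their 2 h values. The sum includes a bright set of Mobp that read 6091, 6907, 4428 and 4297, lowest at 6 h. Of the 10 kept oligodendrocyte sets, 7 were lowest at 1 h and 0 were highest there. Their median log2 difference between 1 h and the mean of the other arrays was -0.44. Another Mobp set read 1003.5, 2786, 1669 and 1937, lowest at 1 h and highest at 2 h. The part of oligodendrocyte content in the C1q values was not tested.

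The 5 kept probe sets whose deviations lay nearest to the median deviation of the 12 members were those of Atp6v1a, Timm17a, Arid1a, Akap17b and Hdgf. Likeness was the root-mean-square distance over the 4 arrays, which ran from 0.0397 to 0.0408 log2 units. They were picked for nearness to the member median, so each was highest at 1 h by little, as that median was. That median mixes sets low at 1 h, such as the main C1q sets, with sets high there.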

How the data were processed

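The authors deposited linear intensity values for 12488 probe sets, 66 of them controls. No label or header states how these were made. The 2%-trimmed mean was 500.3 in every array, so a difference in total RNA does not show. Log2 was taken after raising lower values to a floor of 16.4, the 10th percentile. The 40th percentile of mean log2 intensity left 7453 probe sets. Slopes on the hour were fitted with limma 3.58.1 in R 4.3.3 (eBayes with an intensity trend, 2 residual degrees of freedom, two-sided, Benjamini-Hochberg at 0.05), after tests on simulated data. Symbols came from the array annotation, updated through a table of GRCm38.p6. Values of different probe sets do not rank genes. Precision is limited by having 4 arrays. The members, lists and rules were chosen with earlier results of these data known. Genes named beside the members are, for each list, the 2 brightest kept probe sets and the 2 of largest absolute slope, and the 5 nearest in pattern; lists of non-immune cell types are given by their sums. Alternatives were other scalings, floors, filters, time scales and variance priors, and leaving out each array.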

Additional observations from a re-analysis of the deposited data

Results flagged for a closer look

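In 3 of 43 sets of 4 values, 1 array lay far from the other 3, which chance gives in about 1 of 20 sets. The brighter Laptm5 probe set read 658.8 at 2 h and 833.4 to 850.2 on the other arrays. The ratio of the 3' to the 5' Gapdh probe set was 4.88 at 1 h and 1.13 to 1.33 later. The dimmer Cst3 probe set read 2934.6 at 1 h and 926.4 to 1068.6 later.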

How the results depend on the processing

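The median log2 SD of the members was 0.12 to 0.23 when each array was left out in turn. The count of members with arrays at least 2-fold apart, 1 as reported, was 0 after scaling to a common median, after quantile normalization, with a pseudocount of 32 and when filtered at the 60th percentile, 2 with no filter, and 0 to 1 when each array was left out. The count of all probe sets with a trend, 1 as reported, was 0 with no filter, with 4 and 6 h against 1 and 2 h and with a variance prior without an intensity trend, and 0 to 1 when each array was left out. Members with a trend were 0 under every alternative run. Of 152 member slopes under the alternatives, 146 kept their direction, 6 reversed and 0 passed the test (lowest adjusted p = 0.374 in limma). The slope of Tyrobp was 0.00014 after scaling to a common median. When each array was left out, slopes ran from -0.049 to 0.030 for Tyrobp, -0.020 to 0.082 for C1qc, -0.012 to 0.12 for the main set of C1qb, -0.076 to 0.17 for C1qa and -4.2e-05 to 0.092 for the brighter set of Laptm5. The cause of these changes was not tested. No paired analysis was possible because the samples form 1 group with 1 array per hour.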
